A study of Mus musculus with 24 samples.

Results

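The genes described here are 10 transcription factors of the T cell lineage: Gata3, Zbtb7b, Runx1, Runx3, Tox, Bcl11b, Satb1, Myb, Ikzf1 and Ikzf2. They were chosen by symbol, and every probe set annotated to one of these symbols was taken, which gave 31 of the 45037 probe sets tested and 10 of 18193 genes with a symbol of their own. A probe set is a group of short probes on the array that together report 1 transcript region. Gata3 had 1 probe set, Zbtb7b, Runx3 and Ikzf1 had 2 each, Tox, Myb and Ikzf2 had 3 each, Bcl11b had 4, Satb1 had 5 and Runx1 had 6. Which exons these probe sets read is not given in the sources used here.

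Transcript levels were read with Affymetrix Mouse430_2 arrays. The cells were double-positive (DP) thymocytes, which carry both CD4 and CD8, from male mice of strain Black 6J aged 8 weeks, 3 mice each of wild type (WT), Sap KO, Elk KO and the combined Elk/Sap KO. Sap and Elk were read as Elk4 (SAP-1) and Elk1, ternary complex factors of the ETS family that act with serum response factor downstream of ERK kinases. In every group they were sorted with antibodies to CD4 and CD8, rested for 2 h and then left for 30 min either untreated, on bare plates, or on plates carrying anti-CD3, an antibody that triggers the receptor complex, so that each mouse gave both states. This gave 24 arrays in 8 groups of 3, and the series as a whole concerns the part that ternary complex factors play in positive selection. The labels do not say how the knockouts were made.

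As background, DP thymocytes are selected by the strength of their receptor signal and then become CD4 or CD8 cells. Gata3 and Zbtb7b (ThPOK) act on the CD4 side of that choice, Runx3 with Runx1 acts on the CD8 side and silences Cd4, and Tox is needed for CD4 cells to develop. Bcl11b holds cells in the T lineage, Satb1 organises chromatin in thymocytes, Myb acts in the DP stage, and Ikzf1 (Ikaros) and Ikzf2 (Helios) are zinc finger proteins of 1 family.

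Promoter sequence is shown for Gata3, the member whose rise had an adjusted p under 0.05 in limma in the most genotypes, and for Runx1, the member with the most probe sets. The sequences are shown because ternary complex factors, like other ETS proteins, bind DNA around a GGAA core. The RefSeq promoter table (GRCm38.p6) matched 8 of the 10 genes with 16 start sites, and Tox and Ikzf2 were not matched. Each line gives the 250 bases before an annotated start, 5′ to 3′ on the gene's own strand, which is the minus strand here. Capitals mark GGAA, or TTCC where the core lies on the other strand. The Gata3 window is chr2:9878601-9878850, the upstream Runx1 start has chr16:92826075-92826324, and the downstream start has chr16:92697330-92697579.
Gata3: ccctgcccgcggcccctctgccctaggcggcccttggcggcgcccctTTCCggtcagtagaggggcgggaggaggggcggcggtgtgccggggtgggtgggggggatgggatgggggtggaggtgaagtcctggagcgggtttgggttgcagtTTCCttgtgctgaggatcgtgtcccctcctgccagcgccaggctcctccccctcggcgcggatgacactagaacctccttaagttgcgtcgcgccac
Runx1, upstream start: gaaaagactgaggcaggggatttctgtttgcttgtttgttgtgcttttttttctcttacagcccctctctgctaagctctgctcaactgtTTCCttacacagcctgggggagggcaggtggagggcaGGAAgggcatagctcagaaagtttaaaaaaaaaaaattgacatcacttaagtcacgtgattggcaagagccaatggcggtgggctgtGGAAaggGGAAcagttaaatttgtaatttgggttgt
Runx1, downstream start: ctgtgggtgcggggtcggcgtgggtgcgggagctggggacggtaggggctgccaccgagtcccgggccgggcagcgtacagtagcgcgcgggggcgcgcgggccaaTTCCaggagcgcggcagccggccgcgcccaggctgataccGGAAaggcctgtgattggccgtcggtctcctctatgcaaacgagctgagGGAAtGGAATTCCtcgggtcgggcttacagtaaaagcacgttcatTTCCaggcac

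The Gata3 window held 2 GGAA cores, and the Runx1 windows held 4 and 6, counted on both strands. GGAA was in 14 of the 16 windows and in at least 1 window of all 8 matched genes. It is a common word: 93.4% of 32851 RefSeq windows of the same length held it, with a median of 3 matches. The CArG box that serum response factor binds was in 0 of the 16 windows and in 1.47% of all windows. The Egr motif GCGTGGGCG was in 0 of 16 and in 0.536% of all, the AP-1 motif TGANTCA in 0 of 16 and in 6.75%, the GATA motif AGATAA in 0 of 16 and in 9.99%, and the Runx motif TGTGGT in 2 of 16, 1 window each of Zbtb7b and Runx3, and in 14% of all. Each motif was searched on both strands, and none of these motifs holds another of them.

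All values are log2 signals as the submitters deposited them. A level is not compared between probe sets, except roughly for marker lists and dim probe sets. The mean log2 signal of 11 DP marker genes lay between 10.9 and 11.4 on each array, while marker lists of 7 other cell types averaged 3.97 to 6.65. Single genes went against their list, among them Ptcra of the DP list at 5.74 to 6.9 and Ighm of the B cell list at 11.3 to 12.4. Klf2 of the mature T cell list read 7.18 to 10.6, and Pecam1 of the stroma list read 8.01 to 9.32. Elk4 (probe set 1427162_a_at) was lower than WT by a log2 change of −3.42 in untreated Sap KO (adjusted p = 3.37e-07) and in untreated Elk/Sap KO (adjusted p = 6.86e-07) in limma. Elk1 (1421896_at), whose level was near that of transcripts male cells lack, differed by −0.55 in untreated Elk KO (adjusted p = 0.268). Its untreated Elk KO arrays read 4.03 to 4.69, against 4.70 to 5.23 in WT, and its stimulated arrays overlapped. Another Elk1 probe set read 3.68 to 3.88 in untreated Elk KO and 4.25 to 4.62 in untreated WT. After anti-CD3 it read 3.82 to 4.12 in Elk KO and 4.22 to 4.55 in WT. The dimmest Elk1 probe set was not lower in Elk KO. At such low levels these values did not settle the Elk label. Egr1 rose by 6.43 and Nr4a1 by 5.15 with anti-CD3, averaged over genotypes. Deviations from the probe set medians had an interquartile range of 0.782 on the untreated Elk/Sap KO array of mouse 2 and of 0.182 to 0.383 on the other 23 arrays, so that array stood apart. The Actb 3′ minus 5′ log2 difference, a measure of RNA or labelling quality, was 0.151 to 0.359 in WT, 0.166 to 0.24 in Sap KO, 0.381 to 0.654 in Elk KO and 0.545 to 1.05 in Elk/Sap KO. The dap spike-in was high (8.83 to 9.78) on 2 of 6 WT arrays, 2 of 6 Sap KO arrays and all 6 of both other genotypes, and low (5.92 to 6.63) on the other 8.

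The first question was which of these factors change within 30 min of anti-CD3. Averaged over the 4 genotypes, Gata3 and 1 of the 3 Ikzf2 probe sets rose, 2 of 31 member probe sets, where 1.45% of all probe sets were called at an adjusted p under 0.05 in limma, the threshold used throughout. No member fell at that threshold, where 0.435% of all probe sets did. At an unadjusted p under 0.05 in limma, 5 members were lower, all of Runx1, and 2 were higher. Of all probe sets 7.73% passed that level in either direction. The median change of the 31 members was −0.0155, beside 0.00263 for all probe sets. The same 2 members also rose in each of the 12 mice, as 1.65% of all probe sets moved one way in all mice. Untreated and stimulated arrays did not overlap for 6 members in WT, 10 in Sap KO, 3 in Elk KO and 3 in Elk/Sap KO, where 11.4%, 12.6%, 11.1% and 5.34% of all probe sets did not.

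Gata3, which directs CD4 lineage cells and acts downstream of the T cell receptor, was read by 1448886_at. In WT mice 1, 2 and 3 its log2 signal was 7.30, 7.24 and 7.10 untreated and 7.91, 8.43 and 8.38 after anti-CD3. In Sap KO it was 7.22, 7.37 and 6.91 untreated and 8.15, 8.18 and 8.10 after anti-CD3. The stimulated arrays of both genotypes lay above all of their untreated arrays. In Elk KO it was 7.17, 7.06 and 7.21 untreated and 8.10, 8.17 and 8.18 after anti-CD3. In Elk/Sap KO it was 6.73, 7.80 and 7.33 untreated and 7.71, 8.02 and 8.05 after anti-CD3. Only in Elk/Sap KO did the groups overlap, where untreated mouse 2 was above stimulated mouse 1, although each of the 3 mice rose.

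Gata3 rose by 1.03 ± 0.19 (SE, n = 3 against 3, adjusted p = 0.0161 in limma) in WT, by 0.98 (adjusted p = 0.0233) in Sap KO and by 1.00 (adjusted p = 0.03) in Elk KO, where 0.251%, 0.255% and 0.151% of all probe sets were called in turn. In Elk/Sap KO the change was 0.64 (adjusted p = 0.391), where 0.258% were called, and without the untreated array of mouse 2 it was 0.90 (adjusted p = 0.0243). The averaged rise was 0.91 ± 0.096, or 1.88-fold (adjusted p = 2.96e-06), and mice rose by 0.22 to 1.28. Without the untreated arrays of WT mouse 1, 2 or 3 or the stimulated arrays of WT mouse 2 or 3, the adjusted p in WT was 0.056 to 0.125, with a rise of 0.93 to 1.07. Likewise the call was lost in Sap KO without any 1 of 5 of its 6 arrays (all but untreated mouse 2, adjusted p 0.0992 to 0.237), and in Elk KO without any 1 of its 6 (0.109 to 0.213). The averaged rise kept its call under each of 33 alternatives, between 0.84 and 1.07. Fitted on WT arrays alone, the WT rise had an adjusted p of 0.0952, and after a further quantile normalization the Elk KO rise had one of 0.057.

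Whether the Gata3 response differed from WT was tested directly. The response difference was −0.04 (95% confidence interval −0.61 to 0.52) in Sap KO, −0.02 (−0.59 to 0.54) in Elk KO and −0.38 (−0.95 to 0.18) in Elk/Sap KO, with adjusted p of 1, 1 and 0.729 in limma. These intervals do not show that the responses were alike. Across the 24 arrays the genes whose log2 signal followed Gata3 most closely were Ier2 (Pearson r = 0.927), Nr4a1 (r = 0.912) and Zfp36 (r = 0.911), all of which are early response genes; this is a description over arrays that share the 12 mice.

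**Figure D1:**
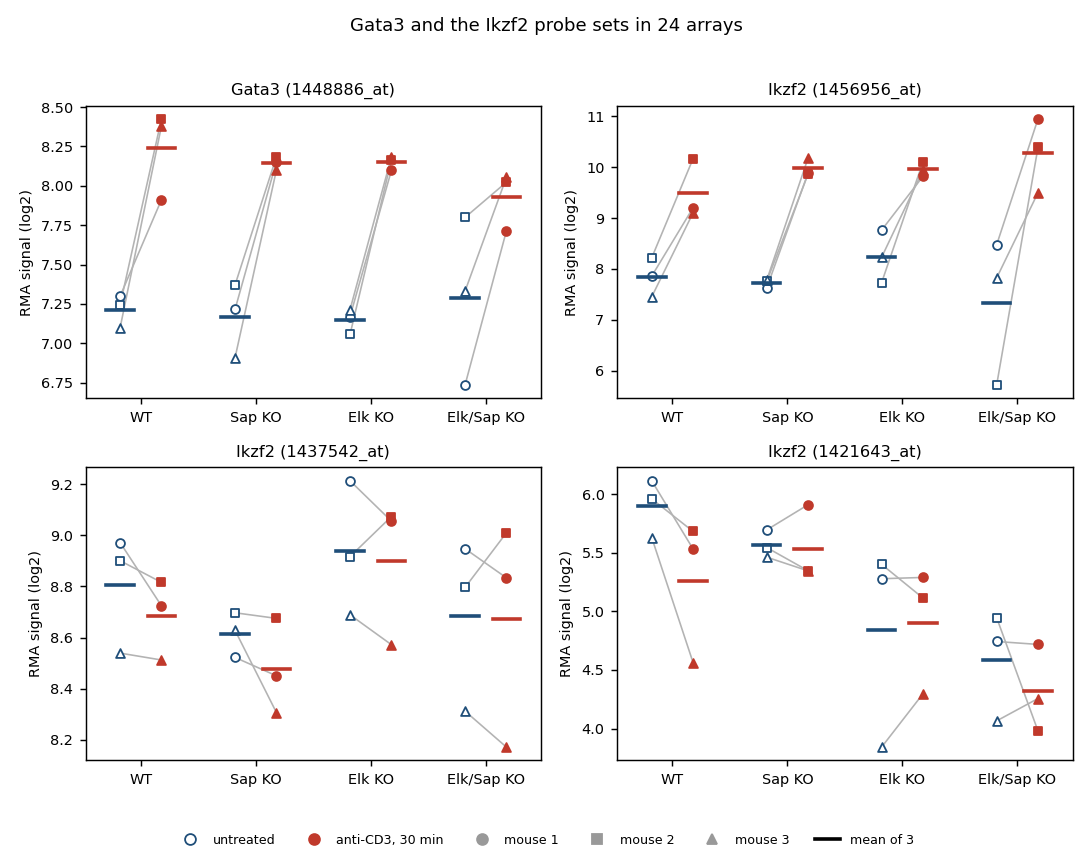
Log2 signal of Gata3 and of the 3 Ikzf2 probe sets on the 24 arrays, by genotype, with open symbols for untreated and filled symbols for anti-CD3 samples, grey lines joining the arrays of 1 mouse, and bars for the mean of 3. Gata3 and Ikzf2 1456956_at rose in each of the 12 mice, and the other Ikzf2 probe sets did not pass the threshold.

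Ikzf2 encodes Helios, a factor of regulatory and strongly self-reactive T cells. Its probe set 1456956_at read 7.86, 8.22 and 7.45 in untreated WT mice 1, 2 and 3 and 9.21, 10.17 and 9.11 after anti-CD3. In Sap KO it read 7.63, 7.76 and 7.78 untreated and 9.89, 9.86 and 10.18 after anti-CD3. No stimulated array of these genotypes overlapped an untreated one. In Elk KO it read 8.76, 7.73 and 8.23 untreated and 9.82, 10.11 and 9.94 after anti-CD3. In Elk/Sap KO it read 8.47, 5.72 and 7.82 untreated and 10.95, 10.39 and 9.50 after anti-CD3. The groups did not overlap here either, and the lowest value of all 24 was the untreated Elk/Sap KO array of mouse 2.

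The averaged rise of Ikzf2 1456956_at was 2.14 ± 0.24, or 4.41-fold (adjusted p = 7.49e-06 in limma), with 1.06 to 4.67 in single mice. It kept its call under each of 33 alternatives, between 1.94 and 2.28. Within genotypes the rise passed the threshold in Elk/Sap KO, at 2.94 ± 0.48 (7.70-fold, adjusted p = 0.00446), and not in WT at 1.65 (adjusted p = 0.364), Sap KO at 2.26 (adjusted p = 0.0508) or Elk KO at 1.72 (adjusted p = 0.556). Without the untreated Elk/Sap KO array of mouse 2, the Elk/Sap KO rise was 2.13 (adjusted p = 0.00537), and the other 3 genotypes passed, with adjusted p of 0.014 in WT, 0.000469 in Sap KO and 0.0156 in Elk KO. With mouse as a block the Sap KO rise passed too (adjusted p = 0.0327). In a fit of the Elk/Sap KO arrays alone their rise had an adjusted p of 1. The Elk/Sap KO response exceeded that of WT by 1.29 (95% confidence interval −0.12 to 2.71, adjusted p = 0.729), so a difference was not shown.

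The other Ikzf2 probe sets did not follow. For 1437542_at the averaged change was −0.08 (95% confidence interval −0.29 to 0.14), and its group means lay between 8.48 and 8.94. The dim probe set 1421643_at changed by −0.22 (−0.60 to 0.16). Within mice, 1456956_at rose more than 1437542_at by 2.22 ± 0.824 (SD, n = 12) and more than 1421643_at by 2.36 ± 1.17, in 12 of 12 mice each. An exact two-sided sign-flip permutation test gave p = 0.000488 for both, the smallest that 12 mice allow, and the pairs were chosen after their values were seen. So 1 region annotated to Ikzf2 rose while the rise of another region was at most 0.14 at the upper bound of its interval. The genes that followed 1456956_at most closely over the 24 arrays were Phf6 (r = 0.932), Stk17b (r = 0.929) and Zfp946 (r = 0.925).

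Runx1, the partner of Cbfb that acts with Runx3 in Cd4 silencing, had 6 probe sets, of which 5 were fitted lower after anti-CD3 by 0.26 to 0.35. The probe set 1422864_at, with the smallest p, read 9.45, 9.12 and 9.13 in untreated WT mice 1, 2 and 3 and 8.95, 8.92 and 8.32 after anti-CD3. Its averaged change was −0.35 ± 0.094 (adjusted p = 0.0704 in limma), lower in 11 of 12 mice, with a 95% confidence interval of −0.55 to −0.16. With mouse as a block the same change passed the threshold (adjusted p = 0.0121), and it passed when untreated Elk KO mouse 3 (adjusted p = 0.0213) or stimulated Elk KO mouse 1 (adjusted p = 0.0345) was left out. For 1440878_at the untreated and stimulated arrays did not overlap in WT, Sap KO and Elk KO, with changes of −0.42, −0.40 and −0.44, while in Elk/Sap KO they overlapped with a change of 0.13. That difference of responses, 0.55, had a 95% confidence interval of −0.11 to 1.21 (adjusted p = 0.729), and 1440878_at in the untreated Elk/Sap KO array of mouse 2 was the lowest of the 24. Without that array the averaged change of 1440878_at was −0.37 (adjusted p = 0.0137), and that of 1422865_at was −0.39 (adjusted p = 0.0377). The sixth probe set, 1452531_at, was dim and changed by 0.15 (−0.07 to 0.38).

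**Figure D2:**
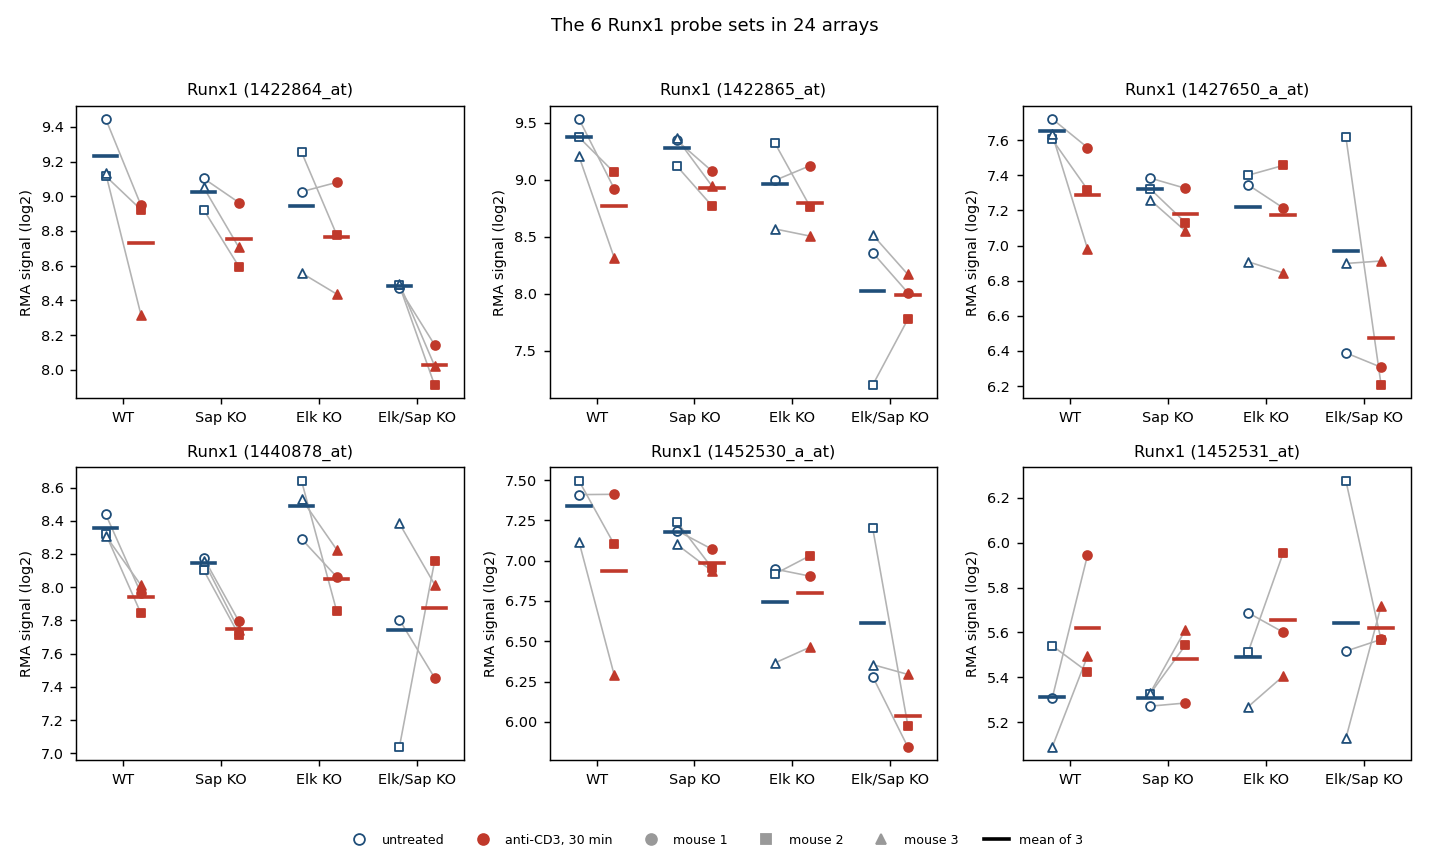
Log2 signal of the 6 Runx1 probe sets on the 24 arrays, by genotype and treatment, with lines joining the arrays of a mouse and bars for the mean of 3; each panel has its own axis. Within each state the Elk/Sap KO arrays of 1422864_at lie lowest, between 8.47 and 8.50 untreated and between 7.91 and 8.14 stimulated, and untreated Elk/Sap KO mouse 2 stands apart in several panels.

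Zbtb7b, the CD4 lineage regulator, was dim in DP cells, with a highest group mean of 5.75 over both probe sets. It changed by 0.03 (95% confidence interval −0.21 to 0.27) on 1420663_at and by 0.12 (−0.05 to 0.29) on 1455071_at. Runx3, the CD8 lineage regulator, changed by −0.01 (−0.19 to 0.16) on 1421467_at, which was dim, and by −0.07 (−0.33 to 0.19) on 1440275_at. These 2 factors of the CD4 or CD8 choice thus gave no call at 30 min. Both Zbtb7b probe sets and Runx3 1421467_at were dim, while Runx3 1440275_at had a highest group mean of 6.65. Tox changed by −0.20, −0.10 and −0.16 on its 3 probe sets, with intervals that include 0.

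For Bcl11b, Satb1, Myb and Ikzf1 no change was called in the averaged response. Bcl11b was fitted at 0.06 to 0.09 on its 4 probe sets, and each interval included 0. The brightest Satb1 probe set, 1416007_at, changed by −0.05 (−0.18 to 0.07), and its group means were 12.88 to 13.05. The widest Satb1 interval was that of 1439315_at, at 0.30 (−0.11 to 0.71). Myb changed by 0.05, 0.03 and −0.03 on its 3 probe sets, and Ikzf1 by −0.12 on 1421303_at and 0.00 on 1436312_at, again with intervals that include 0.

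**Figure D3:**
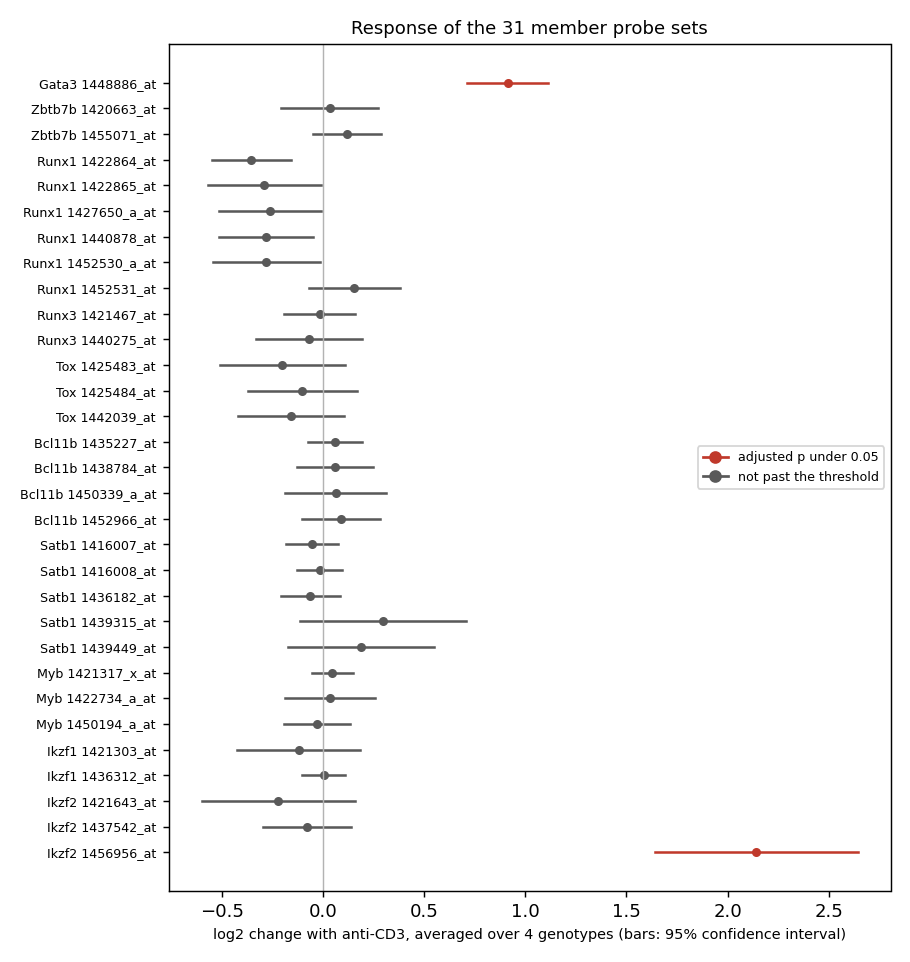
Averaged log2 change with anti-CD3 of the 31 member probe sets (points) with 95% confidence intervals (bars); red marks an adjusted p under 0.05. Gata3 at 0.91 and Ikzf2 1456956_at at 2.14 are past the threshold, and 5 Runx1 probe sets lie between −0.35 and −0.26.

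Other genes of the same network were taken from lists written for the members, each gene by its brightest probe set. Of 14 partners and cofactors of the members (Cbfb, Hdac7, Mta2, Tle3, Ldb1 and others), 0 were called in the averaged response in limma, where 1.43% of 18193 genes were, and their median change was −0.03. Of 28 other thymocyte transcription factors 2 rose and 0 fell: Id3, an inhibitor of E proteins, by 0.75 ± 0.097 (adjusted p = 6.36e-05) and the repressor Gfi1 by 0.56 (adjusted p = 0.000539). Of 20 T cell identity and lineage genes 1 rose and 2 fell: Cd5, a negative regulator of receptor signalling, rose by 1.64, the recombinase gene Rag1 fell by 0.64 and the chemokine receptor gene Ccr7 fell by 0.95.

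The second question was whether these factors depend on Sap or Elk. None of the 31 response differences between a knockout and WT passed the threshold in limma for Sap KO, Elk KO or Elk/Sap KO, where 0.00222%, 0% and 0.00222% of all probe sets did. At an unadjusted p under 0.05 there were also 0 member probe sets in each, beside 1.06%, 1.37% and 5.19% of all. The comparisons with WT share the WT arrays, so they are not independent of each other.

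In Sap KO no member was called against WT, either untreated or stimulated, where 0.0888% and 0.0755% of all probe sets were called in limma. At an unadjusted p under 0.05 there were 0 members in either state, beside 1.73% and 3.37% of all probe sets. Gata3 and both Zbtb7b probe sets differed from WT by −0.09 to 0.08. Groups did not overlap for 4 members in each state, where 8.81% and 10.5% of all probe sets did not. Untreated, 3 of the 4 were Runx1 probe sets, all lower, and the fourth was Ikzf1 1436312_at, which was higher. The mean of 7 B cell markers was 6.24 to 6.61 in Sap KO and 5.80 to 6.04 in WT, and 2 of the 7 lay within the range of Xist, a transcript male cells lack; its part in these values was not tested.

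In Elk KO no member was called either, where 0.0933% of all probe sets were called untreated and 0.144% stimulated in limma. At an unadjusted p under 0.05 there were 7 of 31 members untreated and 3 stimulated, beside 8.6% and 12.6% of all probe sets. Bcl11b, which maintains T cell identity, came nearest. On 1435227_at untreated WT arrays read 11.47, 11.52 and 11.90 from lowest to highest, and untreated Elk KO arrays 12.06, 12.10 and 12.15. Each Elk KO array lay above each WT array, and the difference was 0.48 ± 0.13 (adjusted p = 0.174). After anti-CD3 the difference was 0.47 (adjusted p = 0.135), again without overlap. On 1438784_at the differences were 0.67 (adjusted p = 0.174) and 0.57 (adjusted p = 0.193), while 1450339_a_at and 1452966_at differed by 0.21 and 0.25 untreated, with overlapping groups. Groups did not overlap for 9 members untreated and 4 stimulated, where 20.1% and 18.9% of all probe sets did not.

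The Ikzf1 probe sets went opposite ways in untreated Elk KO: 1421303_at differed from WT by −0.68 (adjusted p = 0.495) and 1436312_at by 0.25 (adjusted p = 0.47), both without overlap. Ikzf2 1421643_at, a dim probe set, differed by −1.06 (adjusted p = 0.327). As the Actb 3′ minus 5′ difference and the dap level were also higher in Elk KO than in WT, these values move together; their part in the differences was not tested.

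Elk/Sap KO was the only knockout in which members were called against WT. Untreated, 5 of 31 were lower than WT and 0 higher, where 4.16% of all probe sets were called lower and 1.18% higher in limma. Stimulated, 4 were lower and 0 higher, where 4.28% were lower and 2.08% higher. The called members were Ikzf1 1421303_at, Runx1 1422864_at, 1422865_at, 1427650_a_at and 1452530_a_at, Myb 1422734_a_at and Ikzf2 1421643_at. The median of the 31 members was −0.201 untreated, beside 0.0503 for all probe sets, and −0.0629 stimulated, beside 0.0295.

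Ikzf1, which encodes Ikaros, showed the largest difference. On 1421303_at untreated WT mice 1, 2 and 3 read 9.81, 10.01 and 9.71, and untreated Elk/Sap KO mice read 8.11, 7.43 and 8.94. Stimulated WT mice read 9.72, 9.70 and 8.82, and stimulated Elk/Sap KO mice read 8.28, 7.62 and 8.61. The groups did not overlap in either state. The difference was −1.69 ± 0.29, or 3.22-fold lower, untreated (adjusted p = 0.00395 in limma) and −1.24 stimulated (adjusted p = 0.0168). On 1436312_at the same arrays differed by −0.11 untreated and by 0.00 stimulated. The log2 ratio of the first probe set to the second, averaged per mouse, was −1.46 ± 0.322 (SD, n = 3) in WT, −1.42 ± 0.118 in Sap KO, −2.12 ± 0.173 in Elk KO and −2.87 ± 0.536 in Elk/Sap KO. Each Elk KO and Elk/Sap KO mouse lay below each WT mouse, and the exact two-sided permutation p was 0.1 for both, the smallest that 3 mice against 3 allow. The same ratio test was run on a Runx1 pair (1422864_at, 1440878_at) and a Bcl11b pair (1435227_at, 1450339_a_at). The Runx1 ratio overlapped WT in every knockout (exact permutation p = 0.3 to 0.7). The Bcl11b ratio lay apart from WT in Elk KO and Elk/Sap KO (exact permutation p = 0.1 for both) and not in Sap KO (p = 0.6).

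Runx1 was lower on 4 probe sets in at least 1 state. Untreated, 1422864_at read 8.47, 8.49 and 8.50 in Elk/Sap KO mice 1, 2 and 3, below all WT arrays, a difference of −0.75 (adjusted p = 0.0243 in limma). On 1422865_at the untreated difference was −1.35 ± 0.27 (2.54-fold lower, adjusted p = 0.00868). Its size leaned on mouse 2, the array that stood apart, at 7.20. Mice 1 and 3 read 8.36 and 8.52, against 9.20 to 9.53 in WT. Stimulated, 1422864_at differed by −0.70 (adjusted p = 0.03), 1427650_a_at by −0.81 (adjusted p = 0.0488) and 1452530_a_at by −0.90 (adjusted p = 0.0397). The probe set 1440878_at differed by −0.62 (adjusted p = 0.108) untreated and overlapped WT in both states. Untreated Elk/Sap KO mice 1, 2 and 3 read 7.80, 7.04 and 8.38 on it, against 8.31 to 8.44 in WT. Across the 24 arrays 1422864_at and 1422865_at moved together (r = 0.864), while 1422864_at and 1440878_at did so less (r = 0.392).

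Myb 1422734_a_at was lower in untreated Elk/Sap KO, with a difference of −0.81 ± 0.21 (adjusted p = 0.0303 in limma). Its Elk/Sap KO arrays read 10.29, 9.23 and 10.05 in mice 1, 2 and 3 against 10.58 to 10.75 in WT, and without mouse 2 the difference was −0.50 (adjusted p = 0.108). Ikzf2 1421643_at differed by −1.31 (adjusted p = 0.0394) at levels of 4.07 to 4.95 against 5.63 to 6.11 in WT. Members that did not pass included Tox 1425483_at, at −0.98 untreated (adjusted p = 0.0556) and −0.85 stimulated (adjusted p = 0.0904) without overlap. The other Tox probe sets, 1425484_at and 1442039_at, overlapped WT in both states. Satb1 1439315_at was at 0.74 (adjusted p = 0.26) and 0.96 (adjusted p = 0.156), with mouse 1 at 9.35 untreated and 9.52 stimulated. Elk/Sap KO mice 2 and 3 read 7.62 and 7.63 untreated and 8.10 and 7.85 stimulated. WT arrays read 7.32 to 7.56 untreated and 7.28 to 7.74 stimulated. The brightest Satb1 probe set, 1416007_at, had means of 12.99 untreated and 12.89 stimulated, against 12.92 and 12.98 in WT. Bcl11b split after anti-CD3, with 1435227_at at 0.37 (adjusted p = 0.0898) and 1450339_a_at at −0.75 (adjusted p = 0.0658), each without overlap with WT. Groups did not overlap for 10 members in each state, where 17% untreated and 24% stimulated of all probe sets did not.

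**Figure D4:**
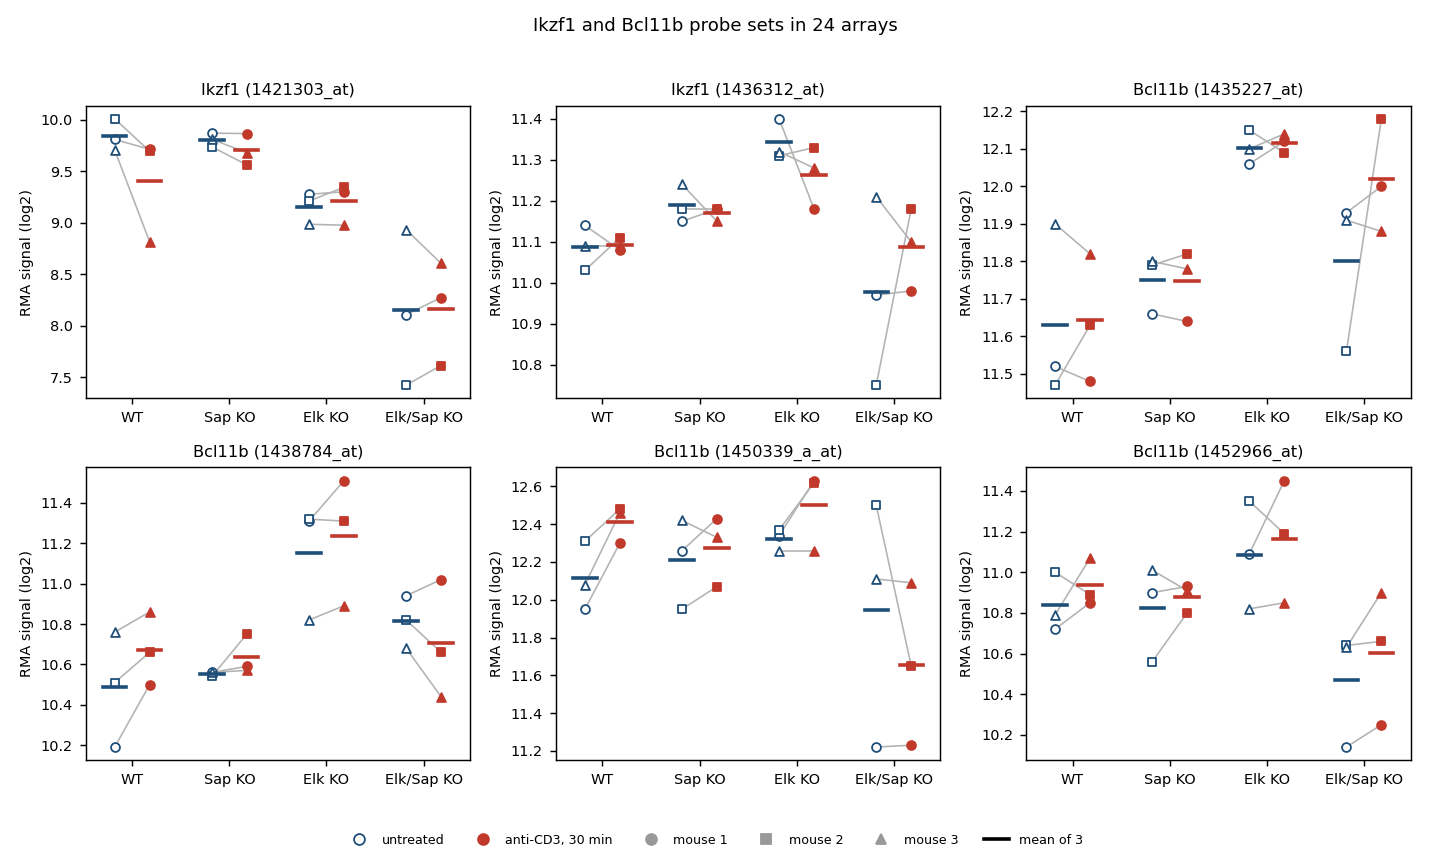
Log2 signal of the 2 Ikzf1 and 4 Bcl11b probe sets on the 24 arrays, by genotype and treatment, with lines joining the arrays of a mouse and bars for the mean of 3; each panel has its own axis. Within each state Ikzf1 1421303_at lies lower in Elk/Sap KO than in WT, while 1436312_at overlaps WT, and Bcl11b 1435227_at is above WT in Elk KO.

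Array quality moved with these Elk/Sap KO differences. With the Actb 3′ minus 5′ difference as a term in the model, chosen after the data were seen, 0 of the 9 Elk/Sap KO member calls remained in limma: Ikzf1 1421303_at was at −0.57 (adjusted p = 0.678) untreated and −0.0037 (adjusted p = 0.999) stimulated, and Runx1 1422865_at at −0.46 (adjusted p = 0.776) untreated. With the dap level as a term Ikzf1 1421303_at kept its untreated call, at −1.45 (adjusted p = 0.034), and the other 8 calls were lost. In a fit of the WT and Elk/Sap KO arrays of one state alone, all 9 were lost, with adjusted p of 0.104 to 0.493, and 3 of all 45037 probe sets were called untreated. Genotype and these quality measures cannot be told apart in Elk/Sap KO. The averaged rises of Gata3 and Ikzf2 1456956_at kept their calls with either term. In bulk arrays fewer cells of a type and less RNA per cell cannot be told apart, and the mean of 9 markers of mature and innate T cells was 5.57 to 5.98 in Elk/Sap KO and 5.93 to 6.54 in WT; its part in these differences was not tested.

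Some Elk/Sap KO calls also rested on single arrays. Without the untreated WT array of mouse 1, Runx1 1422864_at (adjusted p = 0.142), Runx1 1422865_at (adjusted p = 0.058), Myb 1422734_a_at (adjusted p = 0.13) and Ikzf2 1421643_at (adjusted p = 0.166) were lost untreated in limma. Of these, Runx1 1422864_at was also lost without untreated WT mouse 2 (0.0537) or Elk/Sap KO mouse 1 (0.0603), Myb 1422734_a_at without untreated WT mouse 2 (0.0853) or 3 (0.0562) or Elk/Sap KO mouse 2, and Ikzf2 1421643_at without any 1 of 6 other untreated arrays (WT mice 2 and 3, Sap KO mice 1 and 3, Elk/Sap KO mice 1 and 3), at 0.05 to 0.102. Ikzf1 1421303_at kept its untreated call without any 1 of the 24 arrays, and after anti-CD3 it was lost without the stimulated array of WT mouse 1 (adjusted p = 0.0782), WT mouse 2 (0.0714), Elk/Sap KO mouse 1 (0.0601) or Elk/Sap KO mouse 2 (0.0946). The 3 stimulated Runx1 calls were each lost without any 1 of the same 4 arrays, at adjusted p of 0.0817 to 0.196. Of them, 1452530_a_at, which lay near the threshold, was lost without any 1 of 8 arrays in all, the other 4 being Sap KO mice 1 and 3 in both states, and 1427650_a_at without any 1 of 17.

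In the network lists, counts of called genes in Elk/Sap KO against WT are given beside 4.29% of all genes called untreated and 6.5% stimulated in either direction, and no list was tested. This is the comparison in which no member call remained with the Actb term in the model. The list genes were not examined with that term, and genotype and array quality cannot be told apart for them either. Of the 14 partners and cofactors 2 were lower untreated and 5 stimulated, with 0 higher in either state, among them Mta2 at −1.04 (adjusted p = 0.00243 in limma) and Tle3 at −1.14 (adjusted p = 0.00487) after anti-CD3. Of the 20 identity and lineage genes 8 were lower untreated and 4 stimulated, with 0 higher in either state, including the chemokine receptor gene Ccr7 at −1.39 untreated (adjusted p = 0.00422). The 28 other thymocyte transcription factors did not go one way: 2 were lower and 0 higher untreated, and 2 were lower and 2 higher stimulated. Among these, Stat5b, a transducer of cytokine signals, was lower by a log2 difference of −0.64 untreated (adjusted p = 0.022) and −0.87 stimulated (adjusted p = 0.00473), and Gata2, a factor of blood progenitors, was higher by 0.61 stimulated (adjusted p = 0.0145).

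Over the 24 arrays the signal of Ikzf1 1421303_at followed Traf6 (r = 0.944), Sar1a (r = 0.937) and Ncoa4 (r = 0.933) most closely, and that of Runx1 1422865_at followed Ugcg (r = 0.956), Traf6 (r = 0.926) and Rras2 (r = 0.921). These correlations describe arrays that share mice and differ in quality by genotype.

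**Figure D5:**
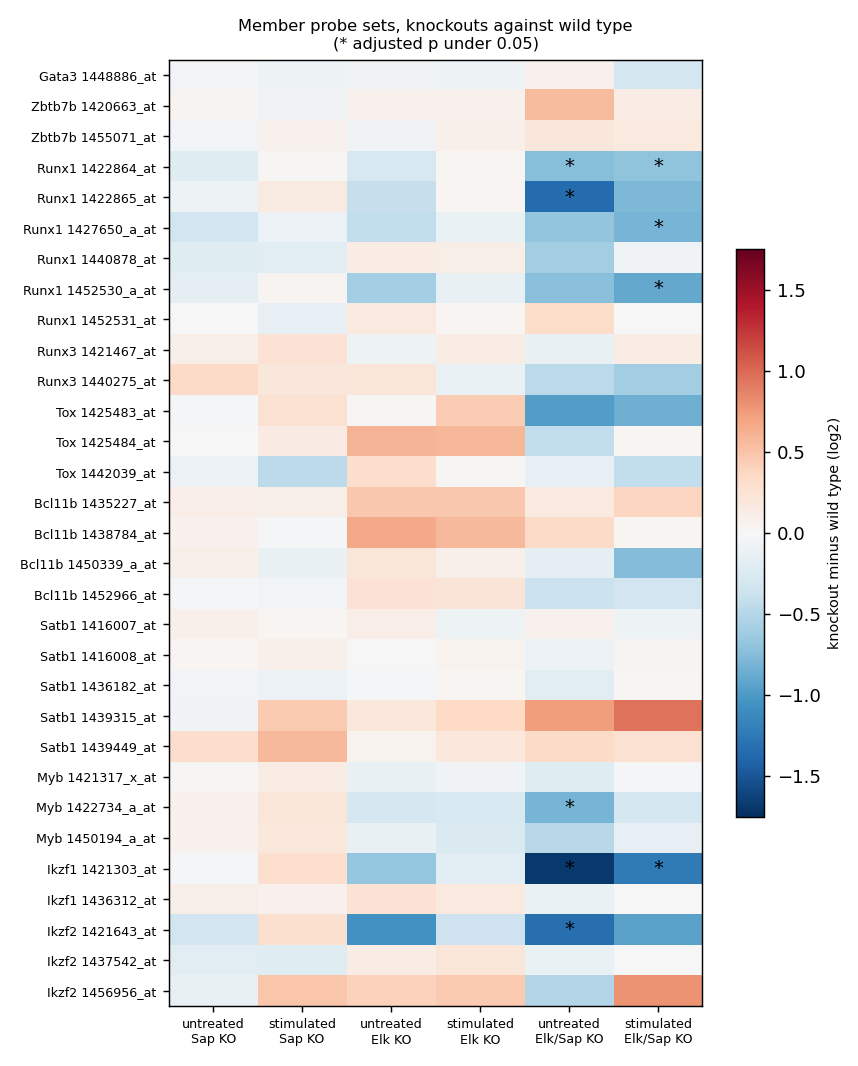
Log2 difference from WT (colour, red higher and blue lower) of the 31 member probe sets in Sap KO, Elk KO and Elk/Sap KO, untreated and stimulated; an asterisk marks an adjusted p under 0.05. Asterisks stand only in the Elk/Sap KO columns, 5 untreated and 4 stimulated, all for lower signal.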

How the data were processed

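Per the submitters' processing notes the authors made the deposited log2 signals with RMA in the affy package; no version or genome build is named there. RMA corrects background, quantile normalizes arrays and summarises the probes of each set, so log2 changes of dim probe sets are compressed. The table held 45101 probe sets on 24 arrays. Its 64 controls were not tested; 34945 of the rest had 1 symbol in the platform annotation, 932 several and 9160 none. Of the 31 member probe sets none had several symbols and 5, called dim here, had no group mean of 6 or more; Xist, which male cells lack, reached 5.07.

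The test was limma 3.58.1 (R 4.3.3) over all probe sets, with 8 group means, 16 residual degrees of freedom, two-sided p and Benjamini-Hochberg adjustment within each of 14 contrasts; figures used matplotlib 3.10.9. The scripts were tested on simulated data. The number of arrays limits the precision. Members and lists were chosen with earlier results of these data known. All member probe sets may be named; from each list at most 4 genes with the smallest adjusted p, and for each called member the 3 genes with the highest correlation. Mouse numbers pair the arrays, since labels give both arrays of a number to 1 mouse; after removal of group means the 12 pairs correlated at 0.121 to 0.84, 9 of them best with their own number. Alternatives were 1 probe set per gene, dim probe sets left out, median centring, quantile normalization once more, array weights, mouse as a block, dap or Actb terms, an intensity trend, only the groups compared, and each array left out.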

Additional observations from a re-analysis of the deposited data

Results flagged for a closer look

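In Satb1 1416007_at the changes with anti-CD3 went opposite ways in WT and Elk KO: the 3 WT mice changed by 0.01 to 0.11 and the 3 Elk KO mice by −0.28 to −0.07. The mean change in Elk KO minus that in WT was −0.218, and the limma test of that difference gave an adjusted p of 1. Satb1 was not called in either genotype. This case was picked by its values from among the member probe sets and genotype pairs. The share of all probe sets with such a pattern is not given, so the pattern is not a result about Satb1.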

How the results depend on the processing

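No call of a named member reversed under any alternative. The averaged response kept 2 members higher under each one, and with mouse as a replicate block, which follows the pairing, members called lower in it went from 0 to 1 (Runx1 1422864_at) and those called higher in Sap KO from 1 to 2 (Ikzf2 1456956_at); the block ended no member's call. Members higher in WT numbered 1 and became 2 with array weights and 0 with only the groups compared. In Sap KO 1 became 2 with 1 probe set per gene, dim probe sets left out, array weights, an intensity trend or only the groups compared. In Elk KO 1 became 0 with quantile normalization once more and 2 with array weights or only the groups compared, and in Elk/Sap KO 2 with array weights and 0 with only the groups compared. Members lower in the averaged response went from 0 to 1 with dim probe sets left out or with the dap or Actb term, and to 3 with array weights. Untreated Elk KO against WT went from 0 to 2 higher and 1 lower with array weights, and to 1 lower with only the groups compared; stimulated it went to 1 higher with array weights. Untreated Elk/Sap KO against WT had 5 lower, and 1 with 1 probe set per gene, 9 with median centring, 3 with quantile normalization once more, 13 lower and 4 higher with array weights, 1 with the dap term, and 0 with the Actb term or only the groups compared. Stimulated it had 4 lower, 1 with quantile normalization once more, and 0 with 1 probe set per gene, the dap term, the Actb term or only the groups compared, and 1 higher with array weights. Leaving out each array in turn gave 0 to 2 members higher in WT, Sap KO and Elk KO, 1 to 2 in Elk/Sap KO, 2 in the average with 0 to 2 lower, 1 to 7 lower and 0 to 1 higher untreated and 0 to 6 lower and 0 to 1 higher stimulated for Elk/Sap KO against WT, and 0 to 1 higher for stimulated Elk KO. With array weights 2443 probe sets were called in the averaged response instead of 654, and with the block 1082. Calls over all probe sets thus moved with these settings too. The shares of all probe sets are not given for each setting, so the member counts here describe the settings and are not a result about the members. The cause of these shifts was not tested. With 3 arrays a group, and dim signals for both Zbtb7b probe sets and for Runx3 1421467_at, small changes of these genes were not detectable.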
